A study of Homo sapiens with 6 samples.

Results

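Peroxiredoxins and glutathione peroxidases are enzymes that remove hydrogen peroxide and lipid peroxides from the cell. Their transcripts were followed in OVCAR5 cells, an established ovarian cancer cell line, treated with SpiD7, a spirocyclic dimer that reacts with surface-exposed cysteine residues of proteins. The members were taken by symbol, as 6 peroxiredoxins (PRDX1 to PRDX6) and 4 glutathione peroxidases (GPX1, GPX2, GPX4 and GPX8), from the 29982 gene symbols in the deposited table. All 10 had a mean of at least 1 FPKM (fragments mapped, relative to transcript length and library size) over the libraries, as did 13287 genes in all. The members were set by symbol and not by a cut on their values, although earlier results of these data were known.

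The study comprised 6 RNA-Seq libraries of this one cell line. Vehicle control (DMSO) had 2 libraries, 10 μM SpiD7 for 2 h had 2, and 10 μM SpiD7 for 6 h and for 12 h had 1 each. The labels give no duration for the vehicle and do not say whether replicates came from separate cultures, so that p-values measure only the spread between these libraries. The labels name no genetic change, and all groups share this one line, so that nothing here extends to other ovarian cancer cells. The second DMSO and the second 2 h library were each recovered from a deposited column that behaves as the mean of both libraries of the group, and they are called recovered throughout.

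In the reaction cycle of a peroxiredoxin, a cysteine is oxidised by peroxide to a sulfenic acid and is then reduced again, in most members by thioredoxin. Most glutathione peroxidases use a selenocysteine in the same place, which is inserted at a UGA codon, and take their electrons from glutathione. PRDX1 and PRDX2 act in the cytosol, PRDX3 in mitochondria and PRDX4 in the endoplasmic reticulum (ER), where GPX8 is also found.

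The catalytic codon is shown here because it is the residue type that sets the members apart. Each line gives the codon in capitals with 12 bases on each side, in the 5′ to 3′ direction of the coding strand, from GENCODE release 29 transcripts of GRCh38.
PRDX1: ttcacctttgtgTGCcccacggagatc
PRDX2: ttcacttttgtgTGCcccaccgagatc
PRDX3: ttcacctttgtgTGTcctacagaaatt
PRDX4: ttcacatttgtgTGTccaactgaaatt
PRDX5: ttcacccctggaTGTtccaagacacac
PRDX6: tttaccccagtgTGCaccacagagctt
GPX8: gtggccagtgacTGCcaactcacagac
GPX1: gtggcgtccctcTGAggcaccacggtc
GPX2: gtggcttcgctcTGAggcacaaccacc
GPX4: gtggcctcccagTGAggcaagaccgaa
The 6 peroxiredoxins and GPX8 carry a cysteine codon (TGC or TGT), and GPX1, GPX2 and GPX4 carry TGA, which the annotation marks as selenocysteine in all 3. The TGA of GPX4 lies in exon 3 of 7 on chromosome 19 (chr19:1105403-1105405, plus strand), that of GPX1 in exon 1 of 2 on chromosome 3 (chr3:49358132-49358134, minus strand), and that of GPX2 in exon 1 of 2 on chromosome 14 (chr14:64942607-64942609, minus strand). The cysteine codon of GPX8 lies in exon 2 of 3 (chr5:55161024-55161026, plus strand) and that of PRDX3 in exon 4 of 7 (chr10:119173860-119173862, minus strand).

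In vehicle-treated cells, 8 of the 10 transcripts ranked between the percentiles 92.6 and 98.8 of all genes kept. PRDX1 stood highest, at 530.3 ± 55.2 FPKM (SD, n = 2). It was followed by GPX4 (285 ± 92.7), PRDX5 (243 ± 79.2), GPX1 (172 ± 48.3), PRDX3 (157 ± 0.874), PRDX6 (134 ± 32.2), PRDX2 (112 ± 10.4) and PRDX4 (91.9 ± 3.39 FPKM, SD, n = 2). GPX2 (9.07 ± 3.54) and GPX8 (8.23 ± 2.51 FPKM, SD, n = 2) were far lower, at percentiles 44.1 and 42.0. PRDX1 exceeded every other member in each DMSO library, and both DMSO values of PRDX2 exceeded both of PRDX4. From GPX4 down to PRDX3, neighbours in this order overlapped between their DMSO libraries. So did PRDX6 with PRDX2 and GPX2 with GPX8, while the lower PRDX3 value (156.7) barely exceeded the higher PRDX6 value (156.4). The order at the top, PRDX1 followed by GPX4, was found in all 6 libraries.

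**Figure D1:**
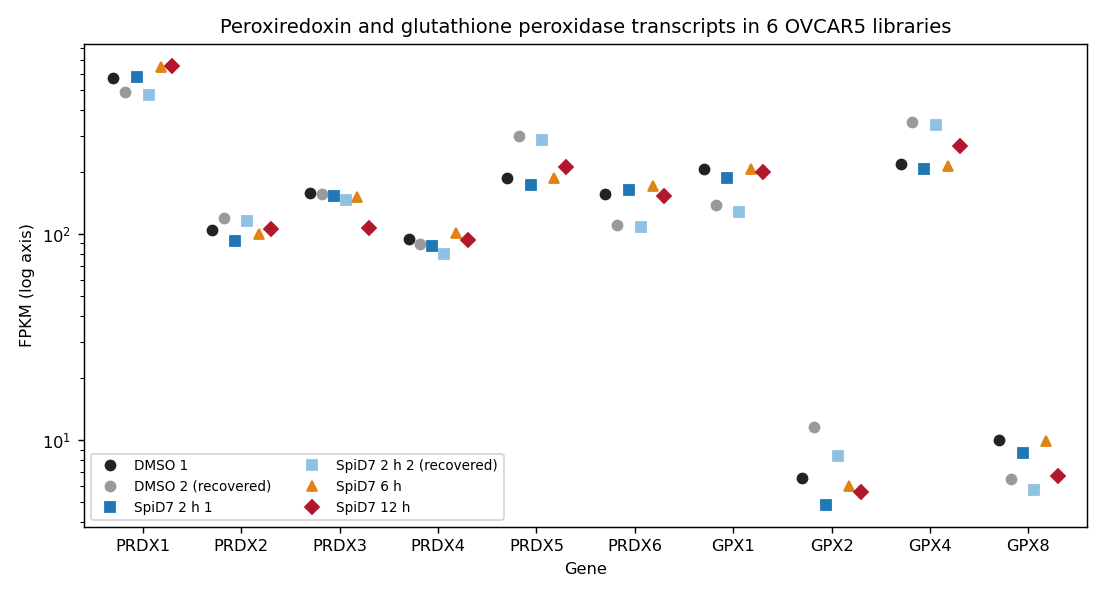
FPKM of each of the 10 genes (log axis) in each of the 6 libraries, with 1 point per library. PRDX1 is highest in every library, GPX2 and GPX8 are lowest, and for PRDX3 the 12 h point (107.5 FPKM) lies below the other 5 libraries.

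No member differed from DMSO by more than 2-fold at 2 h, 6 h or 12 h when set against the average of the DMSO libraries on the log2 scale. Among all 13287 genes, 2.32% were more than 2-fold higher and 0.662% lower at 2 h, 5.66% higher and 3.1% lower at 6 h, and 6.48% higher and 3.76% lower at 12 h, so that less than 1 of 10 genes would be counted in each direction at these rates. The number of members past 2-fold against both DMSO libraries at once was 0, as against 1.23% of all genes higher and 0.226% lower at 2 h, 3.21% and 0.61% at 6 h, and 3.88% and 0.993% at 12 h. The members had a median log2 change of -0.10 after 2 h, 0.04 after 6 h and -0.07 after 12 h, beside -0.01, 0.03 and -0.05 over all genes. All log2 changes are on the scale of log2(FPKM + 0.1). The FPKM of the 6 peroxiredoxins together came to 1269 and 1266 with vehicle, 1247 and 1209.7 after 2 h, 1359 after 6 h and 1326 after 12 h, the first value of each pair being that of the first library here and below. The FPKM of the 4 glutathione peroxidases together came to 442 and 506 with vehicle, 407 and 478 after 2 h, 437 after 6 h and 479 after 12 h. The peroxiredoxin sum was thus below both DMSO libraries in both 2 h libraries and above both in the later ones. The FPKM total over all rows also differed between libraries. It was 830453 and 1071377 with vehicle, 839224 and 879503 after 2 h, 978393 after 6 h and 1062919 after 12 h. The sums were not scaled to these totals, so that their direction holds for FPKM as given. Of the 6 peroxiredoxins, PRDX1, PRDX4 and PRDX6 lay above both DMSO libraries at 6 h, and PRDX2 and PRDX3 below both. Among all genes, 31.6% lay above and 29.2% below. At 12 h only PRDX1 of the 6 lay above both (30.1% of all genes did), and only PRDX3 lay below both (35.6%). The later sums therefore do not stand for the whole family. The sum of the glutathione peroxidases was below both in the first 2 h and the 6 h library. It was within the DMSO range in the recovered 2 h and the 12 h library.

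For 2 h the design allowed a test, and limma was fitted over all genes with 2 libraries on each side. Of 13287 genes, 3 passed both a Benjamini-Hochberg adjusted p of 0.05 and 2-fold (0.0226%), and 0 of the 10 members were among them, with 378 genes (2.84%) and 0 members at an unadjusted p under 0.05 in limma. The adjusted p from limma was 1.0 for every member. The 95% intervals were widest for GPX2 (-1.77 to 0.88 on the log2 scale) and narrowest for PRDX3 (-0.53 to 0.38). In this fit, which had no block for the replicate number, a 2-fold change at 2 h lay outside the interval for PRDX1, PRDX2, PRDX3 and PRDX4, and inside it in at least one direction for PRDX5, GPX1, GPX2, GPX4 and GPX8. The interval of PRDX6 (-0.97 to 1.00) reached to 2-fold on the upper side and almost to it on the lower.

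The log2 change at 2 h was below 0 for 9 of the 10 members, as it was for 51.5% of all genes, and ranged from -0.45 for GPX2 to 0.02 for PRDX6. Both 2 h libraries lay below both DMSO libraries for 2 members, PRDX3 and PRDX4, and for 8.1% of all genes. Both lay above for 0 members and for 13.7% of all genes.

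For most members the DMSO libraries differed from each other by more than treated from control. Between the DMSO libraries, the absolute log2 difference had a median of 0.54 over the members and 0.39 over all genes. It was larger than the change at 2 h for 8 of 10 members, than that at 6 h for 7 and than that at 12 h for 8. How many of all genes meet this rule was not counted, so that the member counts do not set the members apart. Over all genes, the median distance of SpiD7 from the DMSO mean, regardless of sign, was also under 0.39 (2 h: 0.135, 6 h: 0.266, 12 h: 0.331). PRDX5, GPX2, GPX4 and PRDX2 were higher in the recovered DMSO library, and the other 6 were lower there. In the 2 h libraries all 10 members differed in the same direction between the first and the recovered library as in DMSO, as did 84.3% of all genes. At 6 h, 9 members and 66.84% of all genes were nearer to the first DMSO library. The members had a median absolute log2 difference of 0.06 from it, against 0.60 from the recovered one. At 12 h, 8 members and 52.01% of all genes were nearer to the first DMSO library (member medians 0.19 against 0.44). Over all genes these medians were 0.22 and 0.41 at 6 h, and 0.37 and 0.39 at 12 h.

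Among markers of other cell types, CD68, COL1A1, PECAM1 and CDH5 were higher in both recovered libraries, while PTPRC and COL1A2, near 0, were not. The summed level of 6 leukocyte, macrophage, fibroblast and endothelial markers was 26.9 and 50.9 FPKM with vehicle, 24.5 and 41.6 after 2 h, 26.2 after 6 h and 30.0 after 12 h. Of these, PECAM1 was at 0.736 FPKM in the first DMSO library and 10.7 in the recovered one, CD68 made up most of the sum, and PTPRC reached at most 0.0317 and COL1A2 0.0285, with PTPRC listed at 0 at 6 h and COL1A2 at 0 in the recovered 2 h library. Their part in the peroxidase values was not tested. Of the epithelial markers, all 5 were present (KRT8 between 1459 and 2194 FPKM). CDH1 and EPCAM were also higher in both recovered libraries, and KRT8, KRT18 and KRT19 were lower there. The ovarian markers were low, with PAX8 between 1.64 and 2.12 FPKM, MUC16 at most 0.69 and WT1 at most 0.14. In bulk RNA, fewer cells of a type and less RNA per cell cannot be told apart.

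**Figure D2:**
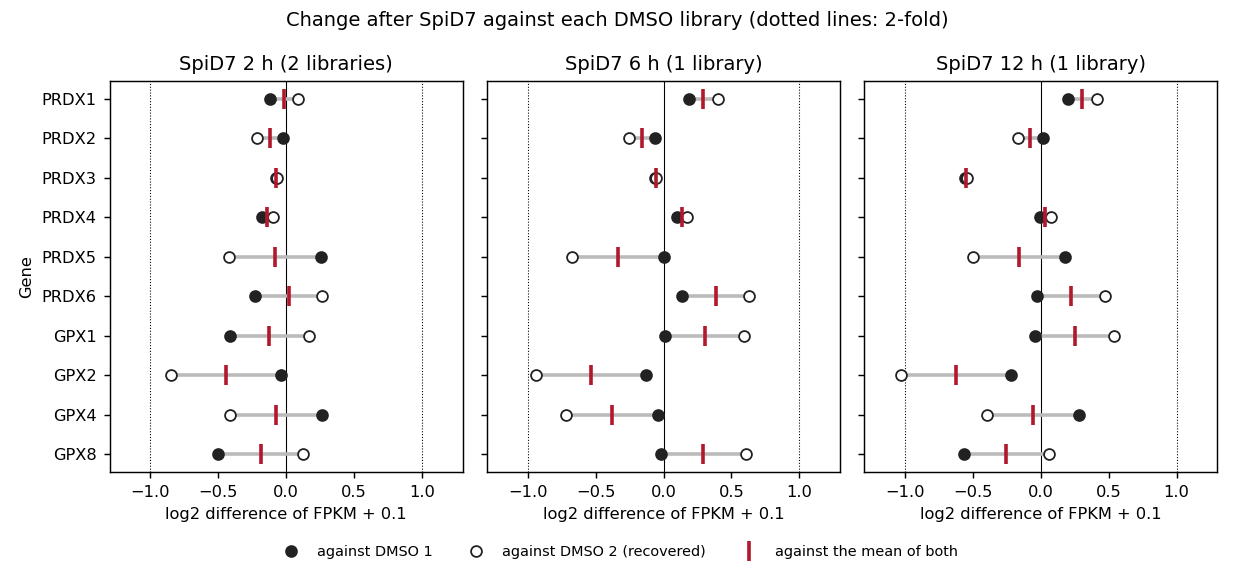
Difference of log2(FPKM + 0.1) between SpiD7 and DMSO for each gene at 2 h (mean of 2 libraries), 6 h and 12 h (1 library each). Filled and open circles are set against the first and the recovered DMSO library, red bars against their mean, and dotted lines mark 2-fold. The circles lie close together for PRDX3 and far apart for PRDX5, GPX2 and GPX4.

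PRDX1 (chromosome 1 of GRCh38, 45511036 to 45523047, minus strand), the most abundant cytosolic peroxiredoxin here, had 569 and 491 FPKM with vehicle, 576 and 475 after 2 h, 648 after 6 h and 654 after 12 h. The 2 h values lay slightly above and slightly below the DMSO values, and the 6 h and 12 h libraries were higher than both DMSO libraries. Set against the first DMSO library its 12 h value was higher by a log2 difference of 0.20, and set against the recovered one by 0.41. A location above both DMSO libraries was shared by 30.1% of all genes at 12 h and by 31.6% at 6 h. PRDX2 (chromosome 19, 12796820 to 12801859, minus strand), its cytosolic relative, had 105 and 119.5 FPKM with vehicle, 92.2 and 115 after 2 h, 100.3 after 6 h and 106 after 12 h. PRDX2 was between its DMSO values at 12 h and slightly below them at 6 h. PRDX1 was 4.73 times as abundant as PRDX2 in the mean of the DMSO libraries.

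PRDX3 (chromosome 10, 119167703 to 119178833, minus strand), the mitochondrial peroxiredoxin, was the member whose DMSO replicates were closest. It had 158 and 157 FPKM with vehicle, 153 and 146 after 2 h, 151 after 6 h and 107.5 after 12 h. All 4 SpiD7 libraries lay below both DMSO libraries, which held for no other member and for 5.04% of all genes. All 4 lay above for 0 members and for 8.93% of genes. A narrow DMSO range makes this rule easier to meet, and only 2.6% of all genes had DMSO libraries as close as those of PRDX3. The log2 difference from the DMSO mean was -0.07 at 2 h and -0.06 at 6 h, and the 12 h library was at 68.6% of the lower DMSO library. The 12 h difference on the log2 scale was -0.55 against the first and -0.54 against the recovered DMSO library, a size that 14.99% of all genes reached or passed in the same direction. In a single limma fit of all 6 libraries, in which the lone 12 h library is assumed to vary like the others, its 95% interval ran from -1.11 to 0.01 (unadjusted p = 0.0525, adjusted p = 0.549). In that fit 0 members passed an adjusted p of 0.05 with a 2-fold change at 6 h or 12 h, as against 0.294% and 0.339% of all genes, and 0 had an unadjusted p under 0.05, as against 5.55% and 9.19%. With 1 library at 12 h, the lower value of PRDX3 has no replicate check.

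The ER members were PRDX4 and GPX8. PRDX4 (chromosome X, 23664262 to 23686399, plus strand), which uses peroxide from ER oxidoreductin 1 to oxidise protein disulfide isomerases, had 94.3 and 89.5 FPKM with vehicle, 87.3 and 79.8 after 2 h, 101 after 6 h and 94.0 after 12 h. It was below both DMSO libraries at 2 h, above both at 6 h and between them at 12 h, over a range of 1.26-fold, the smallest of the 10. GPX8 (chromosome 5, 55160118 to 55167071, plus strand), an ER membrane protein, had 10.0 and 6.46 FPKM with vehicle, 8.65 and 5.73 after 2 h, 9.88 after 6 h and 6.73 after 12 h. The 12 h level of GPX8 was lower than the first DMSO library (log2 difference -0.57) and above the recovered one (0.06). Its values at 12 h therefore lay within the DMSO range.

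PRDX5 (chromosome 11, 64318088 to 64321811, plus strand), a peroxiredoxin of mitochondria, peroxisomes and cytosol, had 187 and 298 FPKM with vehicle, 173 and 286 after 2 h, 187 after 6 h and 211 after 12 h. Its level followed the library number in both groups, high in the recovered and low in the first libraries. The log2 difference at 6 h was 0.004 against the first and -0.67 against the recovered DMSO library. PRDX6 (chromosome 1, 173477266 to 173488807, plus strand), which has a single catalytic cysteine and is reduced with glutathione, had 156 and 111 FPKM with vehicle, 164 and 108 after 2 h, 172 after 6 h and 153 after 12 h. PRDX6 showed the opposite order of libraries from PRDX5, and its first 2 h library and its 6 h library lay above both DMSO libraries.

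The selenocysteine enzymes were GPX1, GPX2 and GPX4. GPX1 (chromosome 3, 49357171 to 49358600, minus strand), the main cytosolic glutathione peroxidase, which GENCODE release 29 lists as a polymorphic pseudogene, had 206 and 138 FPKM with vehicle, 187 and 127 after 2 h, 208 after 6 h and 200.3 after 12 h. GPX1 differed from the first DMSO library by 0.01 at 6 h and -0.04 at 12 h on the log2 scale, and from the recovered one by 0.59 and 0.54. GPX4 (chromosome 19, 1103926 to 1106791, plus strand), which reduces lipid peroxides in membranes and restrains ferroptosis, had 219.6 and 351 FPKM with vehicle, 206 and 337 after 2 h, 213 after 6 h and 267 after 12 h. Its 12 h value was between those of the DMSO libraries, and its 6 h value was just below the first. GPX4 and PRDX5 were the members with the widest absolute gap in FPKM between DMSO libraries.

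GPX2 (chromosome 14, 64939152 to 64942905, minus strand), the gastrointestinal glutathione peroxidase, had 6.57 and 11.6 FPKM with vehicle, 4.86 and 8.37 after 2 h, 6.01 after 6 h and 5.62 after 12 h. The 6 h and 12 h libraries lay below both DMSO libraries, while the 2 h libraries overlapped with them. Taken by library number, GPX2 was lower at 2 h in both pairs (log2 differences -0.43 and -0.46). The labels do not say what a number shares. The log2 difference of GPX2 at 12 h against the DMSO mean, -0.62, was the largest of the 10 in absolute size. This rank rests on the recovered library. Against the first DMSO library alone, GPX8 (-0.57) and PRDX3 (-0.55) differed more than GPX2. With the first DMSO library alone as reference GPX2 was at -0.22 and with the recovered one at -1.03. It thus passed 2-fold only against the recovered library. A location below both DMSO libraries was shared by 35.6% of all genes at 12 h, and among the members by GPX2 and PRDX3. At 6 h, 4 members were below both DMSO libraries (PRDX2, PRDX3, GPX2 and GPX4), as were 29.2% of all genes. Above both were 4 members (PRDX1, PRDX4, PRDX6 and GPX1) and 31.6% of all genes.

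**Figure D3:**
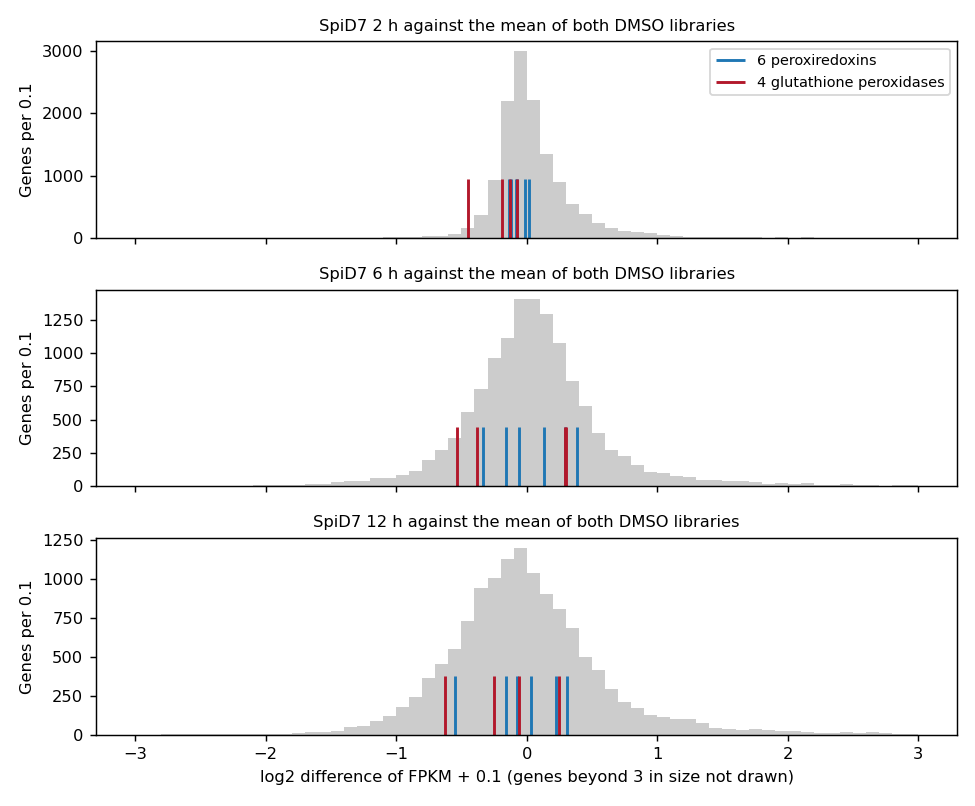
Number of genes per 0.1 of log2 difference against the mean of both DMSO libraries at 2 h, 6 h and 12 h (grey, 13287 genes, those beyond 3 in size not drawn), with the 6 peroxiredoxins as blue and the 4 glutathione peroxidases as red lines. All 10 lines lie between -0.62 and 0.38 at each time point.

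The promoter of GPX2 was the only one of the 8 member promoters searched to hold the core of the antioxidant response element, TGACNNNGC, to which NRF2 binds. Of the 10 members, 8 matched the RefSeq promoter table (GRCh38.p14, 250 bases before to 50 bases after the start), and PRDX1 and PRDX6 did not. Searched on both strands, the core was in 13.3% of all 35116 promoters, a rate near the 1 of 8 found here. It begins 122 bases before the GPX2 start, on the strand opposite to the gene. It is shown in capitals, read along the gene, because GPX2 had the largest 12 h difference from the DMSO mean.
GPX2: ctgtttttGCTAAGTCAtcctgggg
The C/EBP-ATF response element TGATGNAA, searched for because ATF4 and CHOP act through it, was in 3.62% of all promoters and in that of GPX8, 189 bases before the start and also on the opposite strand.
GPX8: aattataaTTACATCAcaaatact
The heat shock element (GAA, TTC and GAA, each parted by 2 open bases, in 0.49% of promoters) and the ER stress response element (CCAAT and CCACG parted by 9 open bases, in 0.0769%) matched 0 of the 8. A match describes these letters only, and neither gene differed from both DMSO libraries by 2-fold.

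The other glutathione peroxidases divided into GPX3, the secreted plasma enzyme, and GPX5, GPX6 and GPX7, which were listed at 0 or under 0.07 FPKM. GPX3 had 73.0 and 120.5 FPKM with vehicle, 67.6 and 112 after 2 h, 82.3 after 6 h and 78.9 after 12 h, again following the library number.

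Among 13 genes of the thioredoxin cycle and peroxiredoxin repair, 1 was more than 2-fold higher than the DMSO mean at 2 h, 2 were at 6 h and 2 at 12 h. At 6 h 2 were more than 2-fold lower, and at 12 h 1. Among all genes, 2.32%, 5.66% and 6.48% were higher at 2 h, 6 h and 12 h, and 3.1% and 3.76% lower at 6 h and 12 h. SESN2, a stress-induced sestrin, had 1.89 and 2.94 FPKM with vehicle, 8.77 and 9.40 after 2 h, 27.3 after 6 h and 38.6 after 12 h. SRXN1, the sulfiredoxin that repairs overoxidised peroxiredoxins (named after its values were seen), had 60.1 and 40.3 FPKM with vehicle, 75.2 and 64.3 after 2 h, 149.5 after 6 h and 116 after 12 h. In both genes all 4 SpiD7 libraries lay above both DMSO libraries, as they did in 8.93% of all genes. At 12 h the log2 difference of SRXN1 was 0.95 against the first and 1.52 against the recovered DMSO library. Those more than 2-fold lower were SESN3, a sestrin named after its values were seen, at 6 h only (4.07 and 12.0 FPKM with vehicle and 3.29 at 6 h), and TXNIP at 6 h and 12 h. TXNIP, which binds and inhibits thioredoxin, had 66.2 and 94.2 FPKM with vehicle, 53.1 and 73.7 after 2 h, 37.8 after 6 h and 28.7 after 12 h, with log2 differences at 12 h of -1.20 and -1.71. The list had a median log2 change of 0.43 at 12 h, beside -0.07 for the peroxidases and -0.05 for all genes.

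Of 12 genes that supply glutathione, 1 was more than 2-fold higher at 2 h (CHAC1, which degrades glutathione). At 6 h 4 were higher, at 12 h 3, and 0 were lower at any time. The shares of all genes at 2 h, 6 h and 12 h were 2.32%, 5.66% and 6.48% higher, and 0.662%, 3.1% and 3.76% lower. SLC3A2, the heavy chain of the cystine transporter, had 205 and 112 FPKM with vehicle, 287 and 222 after 2 h, 557 after 6 h and 672 after 12 h. CHAC1 had 0.74 and 2.08 FPKM with vehicle, 15.5 and 14.2 after 2 h, 31.2 after 6 h and 12.4 after 12 h. The others, also named after their values were seen, were CTH, which makes cysteine, at 6 h and 12 h (4.13 and 10.4 FPKM with vehicle, 14.2 after 6 h and 13.4 after 12 h), and GCLM, a subunit of glutamate-cysteine ligase, at 6 h (21.1 and 10.5 FPKM with vehicle, 36.5 after 6 h). The median of the list was 0.04 at 12 h, so that its large differences were those of a few genes. SESN2 and CHAC1 had unadjusted p-values from limma at 2 h of 0.00404 and 0.005, with an adjusted p of 1.0 for both.

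Differences of more than 2-fold from the DMSO mean at 12 h were found in 0 of 4 kept genes of superoxide and catalase metabolism, 0 of 9 of ER oxidative folding, 0 of 8 of selenocysteine insertion and 1 of 12 other selenoproteins, the last being DIO2 (1.00 and 2.36 FPKM in DMSO and 0.69 at 12 h). Among all genes, 6.48% were more than 2-fold higher and 3.76% lower at 12 h. SOD1, cytosolic superoxide dismutase, had log2 differences at 12 h of 0.59 and 0.54 against the first and recovered DMSO libraries. SOD2, its mitochondrial relative, had 35.0 and 168 FPKM in the DMSO libraries, and its 12 h difference was 0.33 and -1.93 against them. The ER oxidase ERO1LB (1.72 and -0.21) and the disulfide isomerase PDIA3 (0.62 and 0.30) had the largest 12 h differences of the ER list. TRNAU1AP (0.92 and 0.42) and PSTK (0.47 and 0.86), which serve selenocysteine tRNA, had the largest in theirs, and SEPP1, the selenium carrier, was at -0.28 and -1.44.

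**Figure D4:**
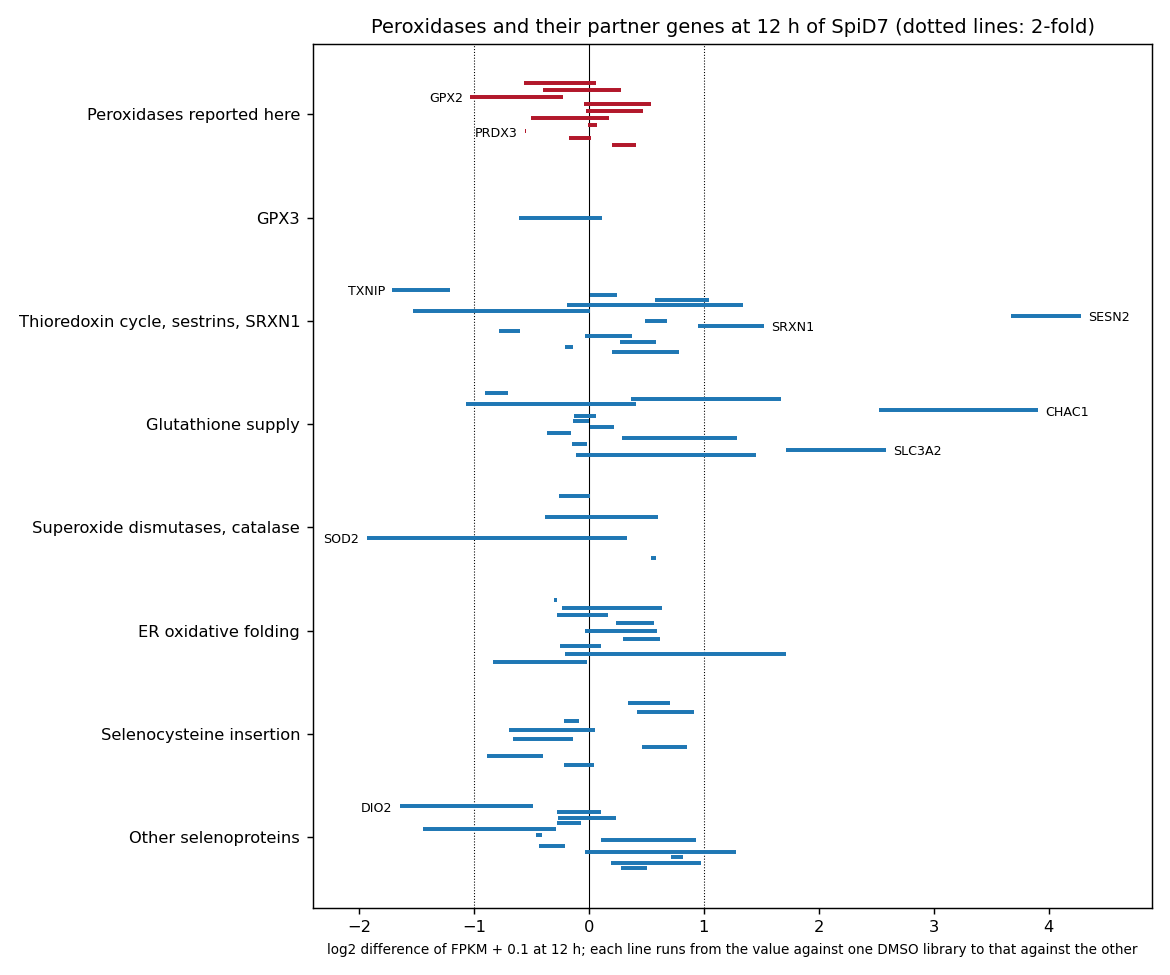
Differences of log2(FPKM + 0.1) at 12 h of SpiD7 for the 10 peroxidases (red) and for kept genes of the other lists (blue). Each line runs from the value against one DMSO library to the value against the other, and dotted lines mark 2-fold. SESN2, CHAC1, SLC3A2 and TXNIP are past 2-fold at both ends, and no peroxidase is.

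By the distance of their centred log2 values over the 6 libraries, the genes most like GPX2 were FCGRT, LUM, ASAH1, PSMG3-AS1 and TTC39A, with root-mean-square distances between 0.11 and 0.12, beside a median of 0.51 over all genes. FCGRT, the first, had 21.6 and 34.7 FPKM with vehicle, 17.8 and 31.5 after 2 h, 19.6 after 6 h and 19.8 after 12 h, high in the recovered libraries as GPX2 was.

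Some member values are uncertain for technical reasons of annotation. GENCODE lists 4 processed pseudogenes each for PRDX2 and PRDX3, 2 for GPX1 and 1 each for PRDX1 and PRDX4, with which short reads could be shared. PRDX1 overlaps MMACHC, PRDX2 overlaps HOOK2 and an antisense gene, GPX2 overlaps CHURC1 and the readthrough CHURC1-FNTB, and GPX8 overlaps CDC20B. The sources do not state that strand was used in counting.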

How the data were processed

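RNA was measured in 6 OVCAR5 libraries. By the study's methods and the labels, single reads were trimmed (Trim Galore) and aligned (TopHat 2.0.8) by the authors, and expression was estimated with Cufflinks 2.1.1 and Cuffdiff 2.1.1. The deposited positions are hg38 per the file headers, although the methods name a mouse build. The deposited table gives FPKM for the 2 sides of each of 4 comparisons, which the authors scaled separately, with fold changes and p-values, which were not used. The deposited comparisons of 6 h and of 12 h have the first DMSO library alone as control. No column lacked a sample or group (0).

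Columns named for replicate 2 behave as means. Of 18195 rows above 0 in the first DMSO library and 18722 in the first 2 h library, 0 were at 0 and 0 fell below a fixed share of it (0.526, set by 811 rows, and 0.509, by 965 rows). Subtraction of that share of the first library, and division of the rest by the share, gave replicate 2 under equal weights, with a remainder under 0.2% of the mean taken as 0. The files do not describe this, and recovered values rest on it. The 6 h and 12 h libraries were divided by 0.972 and 0.994 to join the scale of the first comparison. No counts are given, so total depth is unknown. Steps of 1 read give relative depths, with the first DMSO library as 1, of 0.896 (recovered DMSO), 1.02 (first 2 h), 0.769 (recovered 2 h), 1.11 (6 h) and 0.954 (12 h).

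One row without a gene name was dropped, and rows of a symbol were summed (33085 rows). Genes with a mean of at least 1 FPKM were kept and analysed as log2(FPKM + 0.1) with limma 3.58.1 in R 4.3.3, in Python 3.11.15 and pandas 2.3.3. Limma was tested on simulated data. The members and lists were chosen with earlier results of these data known. Named genes were the members, the 2 largest 12 h changes of each list, genes past 2-fold against each DMSO library, and the 5 genes nearest to the member with the largest 12 h change, and exceptions are marked as named after their values were seen. SEP15 was not found by symbol.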

Additional observations from a re-analysis of the deposited data

Results flagged for a closer look

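PRDX4 was flagged because it moved in opposite directions at 2 h and 6 h, with both 2 h libraries (87.3 and 79.8 FPKM) below and the 6 h library (101 FPKM) above both DMSO libraries (94.3 and 89.5 FPKM). The log2 change at 6 h exceeded that at 2 h by 0.27. The 6 h value is 1 library, and the difference between the time points was not tested.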

How the results depend on the processing

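The number of members more than 2-fold from DMSO was 0 at each time point under the alternative pseudocount, without a filter on low values, with median-ratio scaling, with the highest row per symbol and with the deposited mean columns in place of recovered libraries (chosen after the data were examined). The limma fit of all 6 libraries has the same log2 changes at 6 h and 12 h, and is no separate check of this number. Leaving out a DMSO library gave 0 to 1 members at 12 h, the 1 being GPX2 without the first DMSO library. Members with all SpiD7 libraries outside the DMSO range numbered 1 to 5 when a library was left out (5 without the first DMSO library, 2 without the recovered one, 1 without the first 2 h library and 3 without the recovered one). The rule is easier to meet for any gene with fewer libraries. The share of all genes was counted only with all 6 libraries (8.93% above and 5.04% below), so that these numbers have no background beside them. Median member changes were -0.134 to -0.054 at 2 h, -0.007 to 0.061 at 6 h and -0.056 to -0.015 at 12 h with a library left out, and -0.009 at 6 h and -0.031 at 12 h with median-ratio scaling. Genes called at 2 h by limma went from 3 to 1 with log2(FPKM + 1) and with median-ratio scaling, 0 without a filter (1198 at an unadjusted p under 0.05), 5 with an intensity trend, and 0 to 21 with a library left out (12 without the first and 20 without the recovered DMSO library, 0 without the first and 21 without the recovered 2 h library). When replicate numbers entered as a block, 0 genes were called in limma and 1874 had an unadjusted p under 0.05. The deviations of same-numbered libraries had a correlation of 0.369 over genes, but the labels do not say what a number shares. With the block, the 95% intervals of all 10 members lay within 2-fold, as against 4 without it. GPX2 (-0.68 to -0.21 on the log2 scale) was the 1 member at an unadjusted p under 0.05, and its adjusted p in limma of 0.329 was the lowest of the members. At 2 h, 3 members (PRDX3, PRDX4 and GPX2) stayed below 0 whichever library was left out and 7 took both signs, GPX4 ranging from -0.43 to 0.28. The causes of these differences were not tested. The table limits precision through having 1 library at 6 h and at 12 h and no counts.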

Other observations

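PRDX3, picked after its values were seen, had B4GALT6, TCTN3, PIGO, NFS1 and USP48 as the genes nearest to its pattern over the 6 libraries, with root-mean-square distances of centred log2 values between 0.022 and 0.048, beside a median of 0.32 over all genes. TCTN3 had 29.92 and 29.04 FPKM with vehicle, 29.4 and 27.9 after 2 h, 29.5 after 6 h and 20.3 after 12 h. NFS1, the mitochondrial cysteine desulfurase of iron-sulfur cluster assembly, had 17.3 and 15.8 FPKM with vehicle, 16.4 and 14.9 after 2 h, 16.6 after 6 h and 11.5 after 12 h. Between 6 h and 12 h, PRDX3 was lower by a log2 difference of -0.49, and 12.7% of all genes were lower by as much.

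Among the selenoproteins other than glutathione peroxidases, VIMP, which takes part in ER-associated degradation, was above both DMSO libraries in all 4 SpiD7 libraries, with 24.0 and 25.7 FPKM with vehicle, 30.4 and 30.9 after 2 h, 36.1 after 6 h and 42.3 after 12 h. SEPN1 was below both in all 4, with 27.5 and 26.5 FPKM with vehicle, 23.5 and 25.2 after 2 h, 22.2 after 6 h and 19.9 after 12 h. Both were picked after their values were seen, and such locations were found in 8.93% and 5.04% of all genes.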
